A study of Mus musculus with 8 samples.

Results

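Collagens, laminins and the enzymes and chaperone that act on collagen chains were followed in mouse lung, in 4 knockout and 4 wild type libraries. The knockout is the triply n/i/eNOSs-/- mouse, which carries deletions of all 3 nitric oxide synthase genes (Nos1, Nos2 and Nos3). Each library was taken as 1 mouse, which the labels do not state. Both groups are labelled C57BL/6J, 4 weeks of age and unexposed, and RNA came from lung tissue. How the mutant alleles were made, and the sex, litter and time of collection of the animals, are not given in the labels. Symbols made of Col, a number, a and a digit, of Lama, Lamb or Lamc with a digit, of P4ha or Plod with a digit, or Serpinh1, were found for 44 of the 15728 listed genes. Of these, 41 had a mean of at least 1 count per 1000000 reads (CPM) over the 8 libraries and are described here: 25 collagen chains, 10 laminin chains, 5 hydroxylase genes and the chaperone gene Serpinh1. Just above that level stood Col5a3, with a mean of 1.37 CPM, and Col8a1, also with 1.37 CPM. Just below it were Col7a1 (0.664 CPM), P4ha3 (0.308 CPM) and Col24a1 (0.065 CPM). Col4a3bp, the gene of a ceramide transfer protein, only shares part of its symbol with the collagens and was left out.

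Collagen chains wind into triple helices in the endoplasmic reticulum, where prolyl 4-hydroxylases stabilise the helix, lysyl hydroxylases prepare the sites of later cross-links and the chaperone Serpinh1 binds the folded helix. Fibrillar types I, III and V carry tensile load in airway and vessel walls and in alveolar septa. Type IV collagen and the heterotrimeric laminins build the basement membranes that lie between alveolar epithelium and capillary endothelium.

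The libraries were made by CAGE (cap analysis of gene expression), a method that traps capped RNA and reads its 5′ end. Because an RNA has 1 such end whatever its length, CPM values are set side by side between genes here without division by length. Library totals were 13014134 to 15096188 reads in the knockout and 15598154 to 18593913 reads in wild type. The least abundant gene described, Col5a3, was at 0.59 CPM in its lowest library, against a CPM of 0.161 to 0.231 for 3 reads. Nos3 stood at 5.56, 8.32, 8.83 and 6.76 CPM in knockout libraries 1 to 4, against 18.2, 22.8, 19.8 and 18.6 CPM in wild type libraries 1 to 4, and where its reads lie relative to the deleted part is not given in the labels. Nos1 and Nos2 were not listed, so their deletion could not be checked here. Lung markers were present in every library, but some differed between the genotypes. Sftpc of alveolar type 2 cells averaged 40739 ± 4973 CPM in the knockout and 75406 ± 7581 CPM in wild type, without overlap, and was called lower by the test given below (log2 difference -0.89, adjusted p = 0.000299). Epcam, of epithelial cells in general, averaged 147 ± 9.45 CPM in the knockout and 115 ± 2.77 CPM in wild type and was called higher (0.34, adjusted p = 0.00187). Ager of alveolar type 1 cells averaged 1060 ± 34.0 CPM in the knockout and 1121 ± 32.8 CPM in wild type and was not called. The part of these cells in the values below was not tested. Values below are given in this library order, and means are ± SD over the 4 libraries of a genotype. Differences are knockout minus wild type on log2(CPM + 0.5), from a limma fit over 14065 genes. A gene is called at a Benjamini-Hochberg adjusted p under 0.05 over all of these genes.

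Of the 41 genes, 12 were called higher and 3 lower in the knockout, and 26 were not called. The called share was 36.6%, against 30.9% of all genes tested. The share called higher was 29.3%, against 16.6% of all genes, and the share called lower 7.32%, against 14.3%. The median log2 difference was 0.17, against 0.01 over all genes, and 28 of the 41 differences (68.3%) were positive, against 51.6% of all genes. For 13 genes (31.7%) the genotypes did not overlap, against 31.2% of all genes. The summed level of the 41 genes was 4111, 5902, 5225 and 5116 CPM in the knockout libraries, against 3959, 4055, 4821 and 4346 CPM in the wild type libraries. These sums overlapped, because knockout library 1 lay within the wild type range. In bulk lung, fewer cells of a type and less RNA per cell cannot be told apart.

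**Figure D1:**
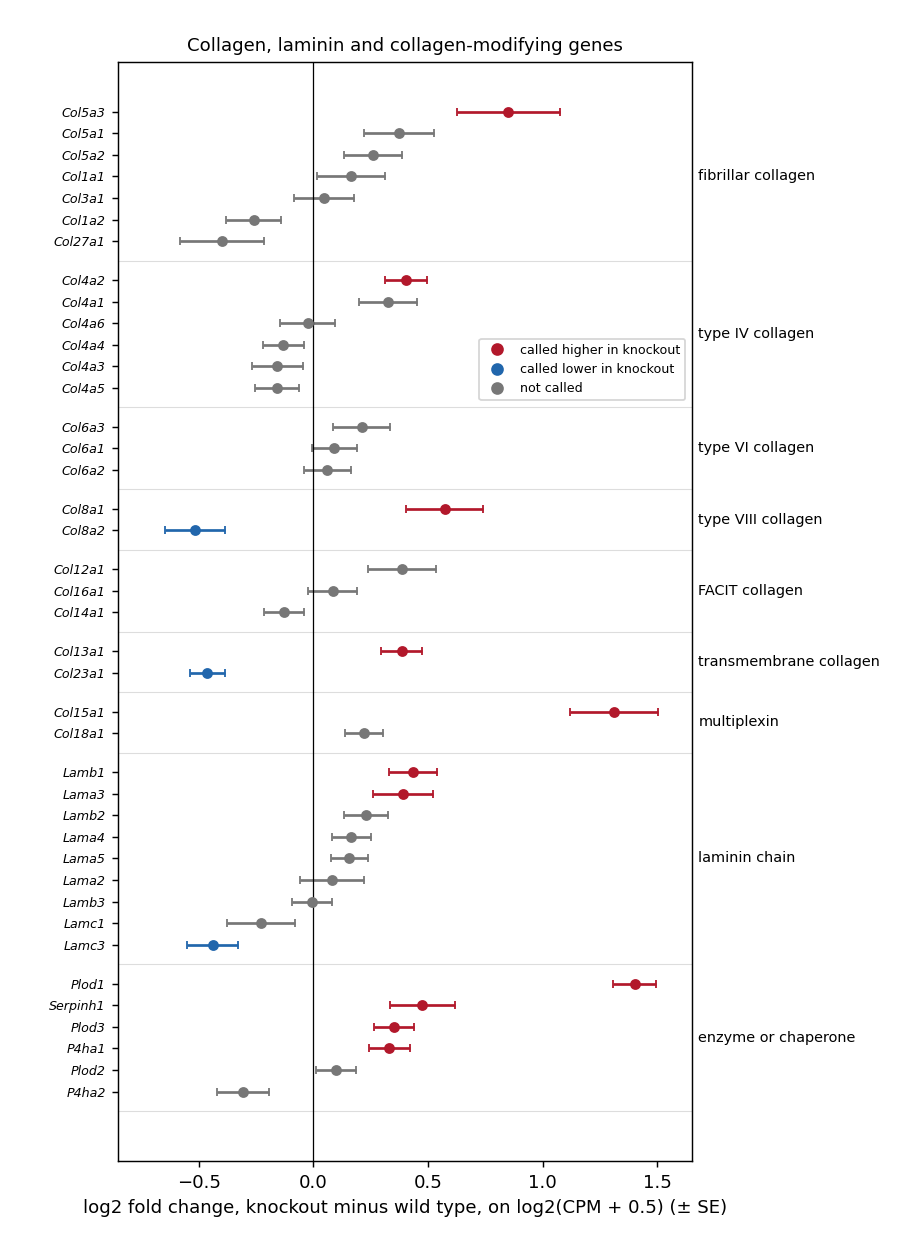
Log2 fold change of 40 of the 41 genes, knockout minus wild type on log2(CPM + 0.5), by class of gene; points are limma estimates and bars their standard errors over 4 knockout and 4 wild type libraries. Plod1 (1.40) and Col15a1 (1.31) lie farthest to the right, and the 3 genes called lower are Col8a2, Col23a1 and Lamc3.

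The collagen-modifying genes held the gene with the largest difference among the 41. Plod1, lysyl hydroxylase 1, which hydroxylates lysines in the helical part of collagen chains, stood at 70.8, 72.2, 75.0 and 87.7 CPM in the knockout, against 25.5, 26.5, 31.0 and 31.5 CPM in wild type. All knockout libraries were far above all wild type libraries. The difference was 1.40 on the log2 scale (SE 0.0929, adjusted p = 1.97e-06), a 2.64-fold higher level. Plod3, the lysyl hydroxylase that also adds sugars to hydroxylysine, stood at 41.0, 42.3, 42.2 and 36.5 CPM in the knockout, against 28.1, 33.2, 35.5 and 29.9 CPM in wild type. The genotypes were again apart, by 0.35 on the log2 scale (SE 0.0864, adjusted p = 0.0105). Plod2, which acts on the ends of the chains outside the helix, averaged 61.5 ± 6.51 CPM in the knockout and 57.3 ± 4.77 CPM in wild type (adjusted p = 0.423). Ratios of levels here are descriptions, chosen after the values of the genes were seen. The ratio of Plod1 to Plod2 was 1.03 to 1.43 in the knockout libraries and 0.42 to 0.61 in the wild type libraries. Plod3 overlaps Znhit1 on the opposite strand, and their 5′ sequences share a stretch. Whether reads were assigned by strand is not given in the labels. Znhit1 was not called (log2 difference -0.09, adjusted p = 0.297).

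Among the prolyl 4-hydroxylase catalytic subunits, P4ha1, the more abundant, rose. It stood at 123, 148, 141 and 117 CPM in the knockout, against 96.5, 114, 112 and 96.6 CPM in wild type, a difference of 0.33 (SE 0.0898, adjusted p = 0.0167). P4ha2 stood at 14.4, 13.3, 14.8 and 10.1 CPM in the knockout, against 16.3, 15.5, 16.7 and 16.4 CPM in wild type. All its knockout libraries were below all wild type libraries, but the difference of -0.30 was not called (adjusted p = 0.0615). The ratio of P4ha1 to P4ha2 was 8.50 to 11.5 in the knockout libraries and 5.88 to 7.31 in the wild type libraries. Their common partner subunit P4hb, named after its value was seen, averaged 279.9 ± 20.6 CPM in the knockout and 277 ± 17.4 CPM in wild type. P4ha1 lost its call without knockout library 3 or wild type library 1 (adjusted p = 0.00118 to 0.0519 over all alternatives). P4ha2 gained one without knockout library 1 or 3, with 2 of the other scalings and with both count tests (0.0307 to 0.125).

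Serpinh1, the collagen chaperone HSP47, was as abundant as the main fibrillar and basement membrane chains. It stood at 495, 817, 802 and 657 CPM in the knockout, against 442, 476, 560 and 484 CPM in wild type. Knockout libraries 2 to 4 were above all wild type libraries and library 1 was within their range. The difference was 0.48 (SE 0.141, adjusted p = 0.0256). Without knockout library 2 or 3 or wild type library 1, 2 or 4 it was no longer called (adjusted p = 0.00107 to 0.0742 over all alternatives). Relative to Col1a1, Serpinh1 was at 1.02 to 1.20 in the knockout libraries and 0.79 to 0.98 in the wild type libraries.

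**Figure D2:**
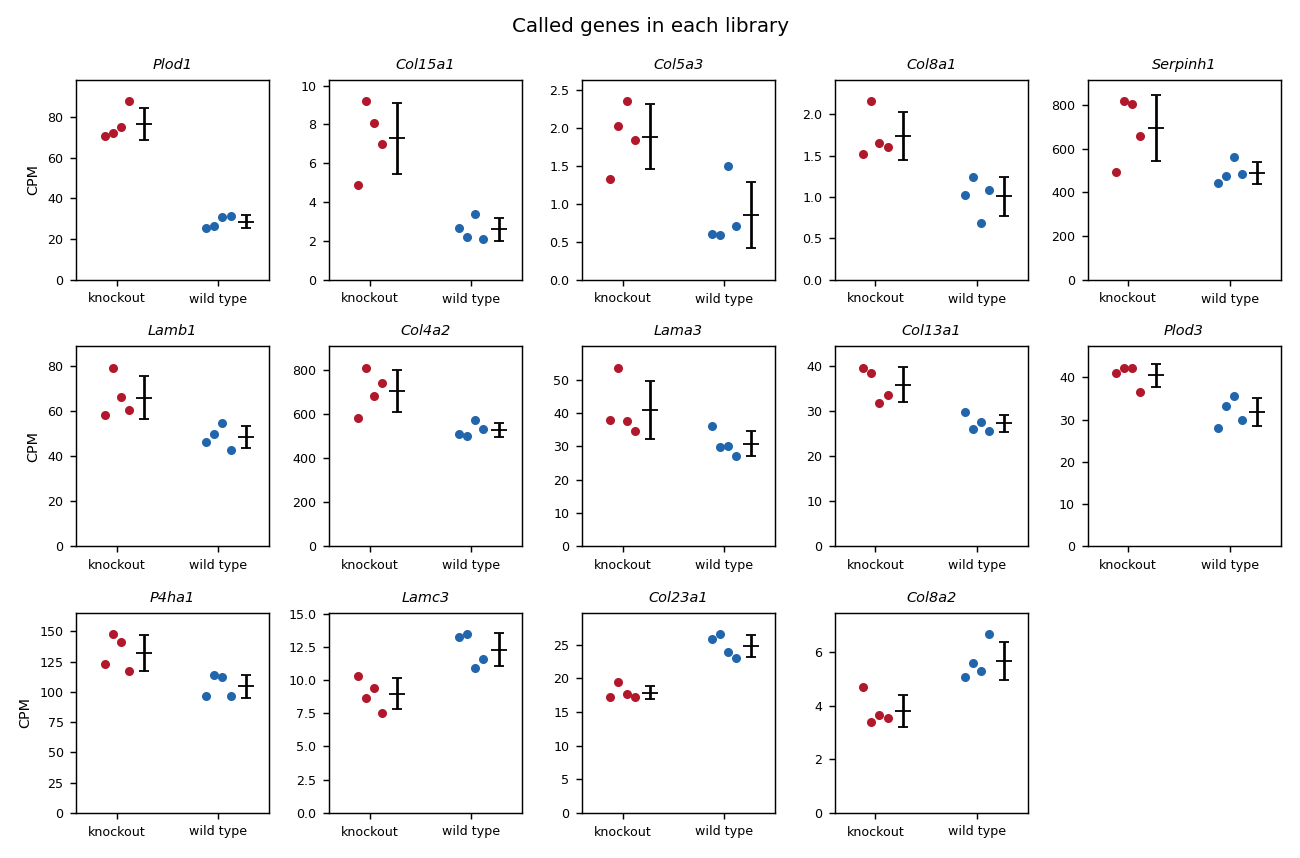
CPM of 14 of the 15 called genes in each of the 4 knockout libraries (left, red) and 4 wild type libraries (right, blue), each panel with its own axis from 0; the bar beside the points is the mean ± SD. For Plod1, the knockout libraries sit between 70.8 and 87.7 CPM and the wild type libraries between 25.5 and 31.5 CPM, whereas the genotypes overlap for Serpinh1, Lama3 and Col5a3.

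Among the RefSeq promoter windows (250 bases before to 50 after an annotated start, build GRCm38.p6), 30 of the 41 genes had an entry. The windows are shown for Plod1 at chr4:147936727-147937026 and Serpinh1 at chr7:99353190-99353489, both on the minus strand, because these enzyme and chaperone genes were both called. Capitals mark matches to short promoter motifs, searched on both strands. For the GC box the letters were GGGCGG, for the TATA box they were TATAAA, and the CCAAT box was searched by the letters of its name.
Plod1: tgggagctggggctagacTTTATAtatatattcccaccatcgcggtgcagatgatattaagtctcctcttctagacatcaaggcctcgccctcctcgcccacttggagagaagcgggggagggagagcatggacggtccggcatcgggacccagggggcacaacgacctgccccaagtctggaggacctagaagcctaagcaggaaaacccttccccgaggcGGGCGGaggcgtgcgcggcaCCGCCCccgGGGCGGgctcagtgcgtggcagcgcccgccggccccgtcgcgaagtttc
Serpinh1: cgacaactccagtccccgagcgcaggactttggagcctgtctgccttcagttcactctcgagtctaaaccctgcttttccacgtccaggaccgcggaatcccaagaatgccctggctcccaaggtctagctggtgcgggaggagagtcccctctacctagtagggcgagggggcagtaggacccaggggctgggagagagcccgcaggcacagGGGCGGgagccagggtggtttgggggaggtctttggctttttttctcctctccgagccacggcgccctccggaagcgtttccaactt
The Plod1 window held 3 GC boxes close to the start and 1 TATA box match far upstream of it, and the Serpinh1 window held 1 GC box. Over the 33 windows of the 30 genes, 66.7% held a GC box, against 35.6% of all 32817 windows. A CCAAT box was found in 27.3%, against 37.4% of all windows, and a TATA box in 12.1%, against 13.6%. The clock E-box CACGTG was in none of the 33, against 7.15% of all windows. These are matches of letters, not binding sites.

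The genes next to Plod1 on chromosome 4 also differed between the genotypes, a feature looked at after its value was seen. Of the 5 tested genes on either side, 7 of 10 were called, the highest number around any of the 41 genes (range 0 to 7, median 3). Their median absolute difference was 0.71 on the log2 scale, against 0.19 over all genes. Nppa, the gene of atrial natriuretic peptide, stood at 0, 0.07, 0.14 and 0.08 CPM in the knockout, against 55.0, 32.2, 75.0 and 90.0 CPM in wild type. Gm13157, a zinc finger gene, stood at 0.20, 0.07, 0.14 and 0.23 CPM in the knockout, against 9.09, 18.2, 9.58 and 6.6 CPM in wild type. Miip, Fv1 and 2510039O18Rik were also called lower, with differences of -0.92, -0.89 and -0.82, as was Gm13202 (-0.60). Zfp933 was called higher (0.54). Mfn2, the mitochondrial fusion gene directly beside Plod1, was not called (-0.06, adjusted p = 0.584), and neither was Clcn6. The part of a shared local difference in the value of Plod1 was not tested.

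**Figure D3:**
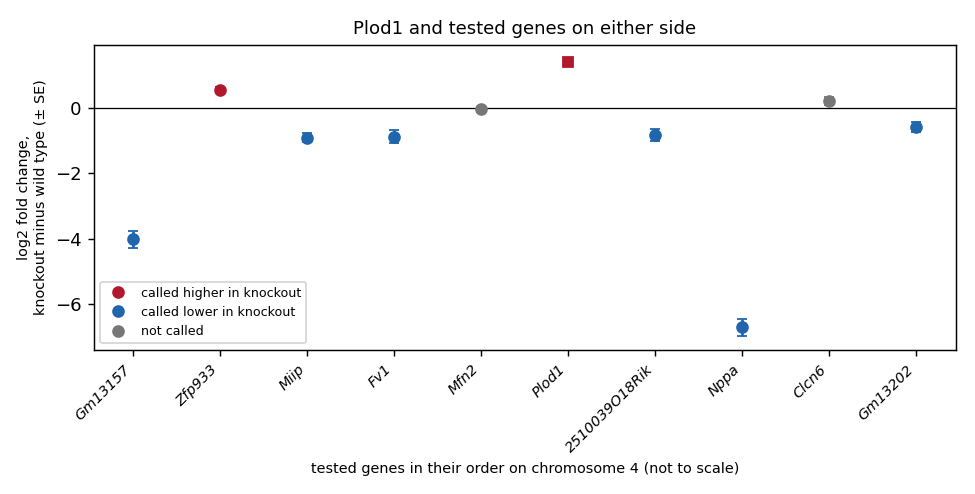
Log2 fold change (± SE, limma, 4 knockout and 4 wild type libraries) of Plod1 (square) and of 9 of the 10 tested genes around it, in their RefSeq order on chromosome 4, with spacing not to scale. Plod1 is at 1.40 between Mfn2 and 2510039O18Rik, and the values of Nppa and Gm13157, which are close to 0 CPM in the knockout, depend on the pseudocount.

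Type IV collagen forms the network of basement membranes, as trimers of the ubiquitous chains of Col4a1 and Col4a2 or, in the alveolar basement membrane, of the chains of Col4a3, Col4a4 and Col4a5. Each pair, Col4a1 with Col4a2, Col4a3 with Col4a4 and Col4a5 with Col4a6, lies head to head. Col4a2 stood at 585, 812, 683 and 742 CPM in the knockout, against 511, 502, 573 and 532 CPM in wild type. All knockout libraries were above all wild type libraries, by 0.40 on the log2 scale (SE 0.0924, adjusted p = 0.00751). Col4a1 stood at 517, 822, 696 and 742 CPM in the knockout, against 515, 500, 638 and 540 CPM in wild type. Its knockout library 1 fell among the wild type libraries, and the difference of 0.33 was not called (SE 0.129, adjusted p = 0.0752). It was called without knockout library 1 and with DESeq2 (0.00409 to 0.177 over all alternatives).

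The RefSeq starts of Col4a1 and Col4a2 lie 21 bases apart on opposite strands, and their promoter windows share 78 bases. The windows are shown because both genes are read from this stretch: Col4a2 on the plus strand at chr8:11312555-11312854 and Col4a1 on the minus strand at chr8:11312777-11313076. Capitals mark GC and CCAAT boxes as above.
Col4a2: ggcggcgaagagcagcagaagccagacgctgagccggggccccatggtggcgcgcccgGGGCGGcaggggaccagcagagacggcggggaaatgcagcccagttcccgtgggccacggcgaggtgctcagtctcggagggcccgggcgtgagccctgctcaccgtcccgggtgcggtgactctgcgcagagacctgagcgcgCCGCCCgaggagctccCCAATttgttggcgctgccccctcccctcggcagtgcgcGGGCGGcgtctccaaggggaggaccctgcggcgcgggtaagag
Col4a1: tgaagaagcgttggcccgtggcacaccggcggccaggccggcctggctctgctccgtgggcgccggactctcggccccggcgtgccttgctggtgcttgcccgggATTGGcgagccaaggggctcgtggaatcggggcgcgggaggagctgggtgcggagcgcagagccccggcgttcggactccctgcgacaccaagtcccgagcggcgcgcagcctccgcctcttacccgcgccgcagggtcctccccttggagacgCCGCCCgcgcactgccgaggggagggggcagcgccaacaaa
The ratio of Col4a1 to Col4a2 was 0.884 to 1.02 in the knockout libraries and 0.995 to 1.11 in the wild type libraries, and these overlapped. Without a statement on strand in the labels, reads of the pair cannot be told apart with certainty.

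The alveolar chains were not called. Col4a3 stood at 59.7, 82.8, 62.0 and 66.6 CPM in the knockout, against 88.0, 68.1, 76.2 and 69.3 CPM in wild type (log2 difference -0.16, adjusted p = 0.306). Col4a4 stood at 59.5, 72.1, 55.1 and 60.5 CPM in the knockout, against 68.5, 66.7, 74.4 and 60.4 CPM in wild type (-0.13, adjusted p = 0.301). Col4a5 stood at 49.0, 68.4, 57.6 and 64.6 CPM in the knockout, against 66.3, 63.6, 70.1 and 65.5 CPM in wild type (-0.16, adjusted p = 0.231). For each of these the genotypes overlapped. Col4a6, the least abundant chain of the type, stood at 7.62, 7.98, 6.69 and 5.69 CPM in the knockout, against 6.22, 7.53, 7.56 and 7.05 CPM in wild type (adjusted p = 0.892). As a description, Col4a1 and Col4a2 together were 6.55, 7.31, 7.90 and 7.74 times the sum of Col4a3, Col4a4 and Col4a5 in the knockout libraries, against 4.61, 5.04, 5.49 and 5.49 times in the wild type libraries. The summed CPM of 8 pericyte markers also lay apart between the genotypes, at 440.5 to 505 in the knockout and 399.8 to 425 in wild type. Of these 8 markers, 4 were called higher and 2 lower. The sums of adventitial fibroblast and alveolar type 1 markers, given below, did not overlap either, the first lower and the second higher in the knockout. Without Rgs5 the pericyte sums overlapped, as did the adventitial sums without Il33 and the alveolar type 1 sums without Hopx. The sum of 9 endothelial markers overlapped, at 1686 to 1855 in the knockout and 1653 to 1888 in wild type. The part of any of these cells in the ratio was not tested.

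**Figure D4:**
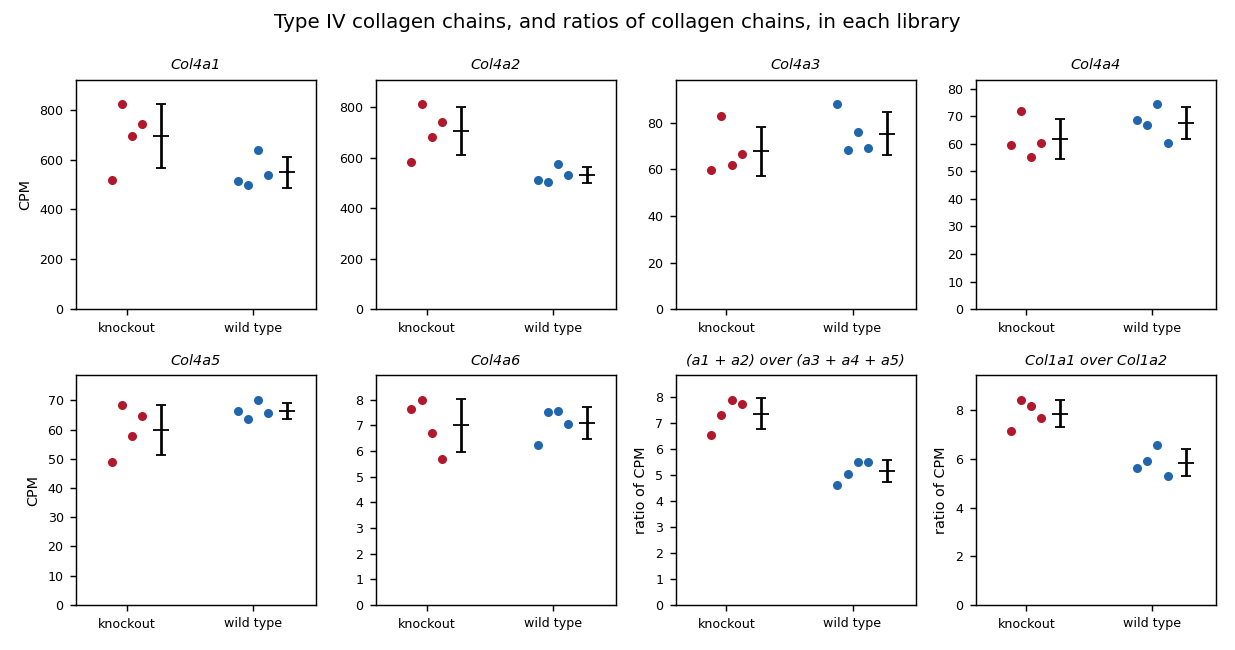
CPM of the type IV collagen chains, and ratios of CPM between collagen chains, in each of the 4 knockout libraries (left, red) and 4 wild type libraries (right, blue), with mean ± SD beside the points and axes from 0. The ratio of Col4a1 plus Col4a2 to Col4a3 plus Col4a4 plus Col4a5 is 6.55 to 7.90 in the knockout and 4.61 to 5.49 in wild type, and that of Col1a1 to Col1a2 is 7.16 to 8.43 in the knockout and 5.29 to 6.57 in wild type.

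Of 7 fibrillar collagen genes 1 was called (14.3%, against 30.9% of all genes tested). Col1a1 and Col1a2 encode the chains of type I collagen, the main fibril of the interstitium. Col1a1 stood at 477, 759.5, 669 and 646 CPM in the knockout, against 484, 484, 693 and 609.8 CPM in wild type (log2 difference 0.17, adjusted p = 0.420). Col1a2 stood at 66.6, 90.1, 82.0 and 84.2 CPM in the knockout, against 85.8, 82.0, 105 and 115 CPM in wild type (-0.26, adjusted p = 0.124). Neither was called and both overlapped, but their ratio did not: Col1a1 was 7.16 to 8.43 times Col1a2 in the knockout libraries and 5.29 to 6.57 times in the wild type libraries. Col3a1, which forms fibrils with type I in distensible tissue, stood at 330, 553, 469 and 475 CPM in the knockout, against 391, 458, 456 and 437 CPM in wild type (0.05, adjusted p = 0.806).

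The type V chains join type I fibrils and limit their width. Col5a3, the rarest of them, stood at 1.32, 2.03, 2.35 and 1.84 CPM in the knockout, against 0.60, 0.59, 1.5 and 0.71 CPM in wild type. It was called higher by 0.85 (SE 0.225, adjusted p = 0.0152), although wild type library 3 lay above knockout library 1. Col5a1 averaged 33.6 ± 7.27 CPM in the knockout and 25.7 ± 4.68 CPM in wild type (0.37, adjusted p = 0.0856). Col5a2 averaged 90.3 ± 14.8 CPM in the knockout and 74.9 ± 9.55 CPM in wild type (0.26, adjusted p = 0.137). Without knockout library 1 both were called, Col5a1 also without wild type library 3 and Col5a2 also with the replicate number as a block. Over all alternatives the adjusted p were 0.0362 to 0.207 for Col5a1 and 0.00983 to 0.301 for Col5a2. Col27a1, a fibrillar collagen best known from cartilage, averaged 2.28 ± 0.61 CPM in the knockout and 3.12 ± 0.53 CPM in wild type (-0.40, adjusted p = 0.118).

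Chains on the surface of fibrils and in microfibrils were not called. The type VI genes, whose beaded filaments connect cells to the matrix, had differences of 0.09 for Col6a1, 0.06 for Col6a2 and 0.21 for Col6a3 (adjusted p of 0.510, 0.684 and 0.219). The fibril-associated collagens Col12a1, Col14a1 and Col16a1 differed by 0.39, -0.13 and 0.08 (adjusted p of 0.0688, 0.290 and 0.573). Col12a1 averaged 13.2 ± 2.76 CPM in the knockout and 9.85 ± 1.28 CPM in wild type. It was called without knockout library 1, with quantile normalization, with the replicate number as a block and with DESeq2 (adjusted p = 0.0181 to 0.181 over all alternatives).

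The largest difference among the collagens called was that of Col15a1, a collagen of the zone around basement membranes of vessels and muscle. It stood at 4.90, 9.20, 8.07 and 6.99 CPM in the knockout, against 2.69, 2.21, 3.41 and 2.12 CPM in wild type. Every knockout library was above every wild type library, by 1.31 on the log2 scale (SE 0.19, adjusted p = 0.000621), a 2.48-fold higher level. Col18a1, its relative and the source of endostatin, averaged 18.2 ± 0.96 CPM in the knockout and 15.6 ± 1.35 CPM in wild type (0.22, adjusted p = 0.0662). It was called without wild type library 3 and with quantile normalization (0.0378 to 0.168 over all alternatives). Col18a1 overlaps Slc19a1 on the opposite strand, which was not called (-0.24, adjusted p = 0.146).
The Col15a1 window from RefSeq, at chr4:47207762-47208061 on the plus strand, is shown because it is the collagen with the largest difference. It holds no GC, CCAAT or TATA box by the letters above, unlike the windows of Plod1, Serpinh1, Col4a1 and Col4a2.
Col15a1: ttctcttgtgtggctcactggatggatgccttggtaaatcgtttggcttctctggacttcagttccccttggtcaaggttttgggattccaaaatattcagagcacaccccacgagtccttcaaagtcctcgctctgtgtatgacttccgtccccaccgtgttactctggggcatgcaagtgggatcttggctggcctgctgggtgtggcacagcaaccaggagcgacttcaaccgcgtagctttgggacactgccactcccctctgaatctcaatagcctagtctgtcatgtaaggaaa

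The type VIII genes differed in opposite directions. Their chains form short networks under endothelium and around smooth muscle. Col8a1 stood at 1.52, 2.16, 1.66 and 1.61 CPM in the knockout, against 1.02, 1.24, 0.69 and 1.09 CPM in wild type, a rise of 0.57 (SE 0.169, adjusted p = 0.0251). Col8a2 stood at 4.70, 3.38, 3.66 and 3.53 CPM in the knockout, against 5.08, 5.59, 5.31 and 6.67 CPM in wild type, a difference of -0.52 on the log2 scale (SE 0.13, adjusted p = 0.0121). For both, the genotypes were apart. The ratio of Col8a1 to Col8a2 was 0.32 to 0.64 in the knockout libraries and 0.13 to 0.22 in the wild type libraries. The call of Col8a1, which rests on low counts, ended without knockout library 2 or wild type library 1 or 3 and with DESeq2 (adjusted p = 0.0119 to 0.0694 over all alternatives).

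The transmembrane collagens, which sit in the cell surface with a collagenous part outside, also went in opposite directions. Col13a1, a marker of a class of lung fibroblasts in mice, stood at 39.6, 38.5, 31.7 and 33.4 CPM in the knockout, against 29.8, 25.9, 27.6 and 25.6 CPM in wild type. It rose by 0.39 (SE 0.0885, adjusted p = 0.00761). Col23a1 stood at 17.3, 19.4, 17.7 and 17.2 CPM in the knockout, against 25.8, 26.6, 23.9 and 23.1 CPM in wild type. Its level fell by 0.46 as a log2 difference (SE 0.0774, adjusted p = 0.00143). Neither showed overlap between genotypes. The summed CPM of 8 alveolar fibroblast markers overlapped, at 1391 to 1987 in the knockout and 1428 to 2035 in wild type, with 2 of the 8 called higher and 1 lower. The most abundant of the 8 was Mfap4, at 688 to 1263 CPM in the knockout and 819 to 1378 CPM in wild type. Pdgfra was higher (0.50, adjusted p = 9.63e-05) and Tcf21 lower (-0.63, adjusted p = 0.000207), both without overlap. The number of these markers called higher was 1 without knockout library 2 or 3, without wild type library 1 or 2, with TMM, with edgeR or without the variance trend, and 4 without wild type library 3 or with the replicate number as a block. Col23a1 lies on chromosome 11 with P4ha2, Col1a1 and the deleted gene Nos2, and Plod3 on chromosome 5 with Nos1 and Nos3. The part of sequence linked to the deleted genes was not tested.

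Laminins are cross-shaped trimers of an alpha, a beta and a gamma chain. Of the 10 genes, 3 were called higher (30%, against 16.6% of all genes) and 1 lower (10%, against 14.3%). Lama3 and Lamb3 encode chains of epithelial laminin, which anchors hemidesmosomes. Lama3 stood at 37.8, 53.6, 37.5 and 34.7 CPM in the knockout, against 36.1, 29.7, 30.2 and 27.1 CPM in wild type, and was called higher by 0.39 (SE 0.132, adjusted p = 0.0431). That call depended on knockout library 2: without it the difference was 0.26, and it was also lost without knockout library 3, wild type library 2, 3 or 4, or the variance trend (adjusted p = 0.0154 to 0.11 over all alternatives). Lamb3, its partner, averaged 42.1 ± 3.67 CPM in the knockout and 42.3 ± 4.12 CPM in wild type (-0.01, adjusted p = 0.966). The ratio of Lama3 to Lamb3 was 0.864 to 1.14 in the knockout libraries and 0.594 to 0.852 in the wild type libraries. Lamb3 overlaps Hsd11b1 and G0s2 on the opposite strand, which were called lower (-0.42 and -0.55).

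The summed CPM of 8 alveolar type 1 markers, cells that rest on the alveolar basement membrane, was 8242 to 9017 in the knockout and 7300 to 7843 in wild type, with 2 of the 8 called higher and 1 lower (2 lower with quantile normalization). Most of that sum was Hopx, at 5472 to 6002 CPM in the knockout and 4273 to 4914 CPM in wild type, and without Hopx the sums overlapped. Hopx and Rtkn2 were called higher (0.35 and 0.31, adjusted p = 0.00308 and 0.016). Pdpn was called lower (-0.83, adjusted p = 0.000308), at 92.8 to 121 CPM in the knockout and 162 to 216 CPM in wild type. The part of these cells in the laminin values was not tested. Of the airway basal markers, Krt5, Krt14 and Trp63 were not listed, and the other 2 summed to 2.19 to 3.93 CPM in the knockout and 2.26 to 3.47 CPM in wild type.

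Among the widely expressed laminin chains, Lamb1 stood at 57.9, 79.0, 65.9 and 60.4 CPM in the knockout, against 46.4, 49.8, 54.6 and 42.7 CPM in wild type. It was called higher by 0.44 (SE 0.105, adjusted p = 0.00956), with no overlap. Lamc1, the usual gamma chain in trimers with it, averaged 66.5 ± 14.8 CPM in the knockout and 77.5 ± 13.2 CPM in wild type (-0.23, adjusted p = 0.268), and was called lower without knockout library 2 (0.0389 to 0.547 over all alternatives). The ratio of Lamb1 to Lamc1 was 0.90 to 1.13 in the knockout libraries and 0.46 to 0.75 in the wild type libraries. Lamc3, a gamma chain of more restricted use, stood at 10.3, 8.66, 9.39 and 7.53 CPM in the knockout, against 13.2, 13.4, 10.9 and 11.6 CPM in wild type. Its level fell by 0.44 as a log2 difference (SE 0.112, adjusted p = 0.013), also with no overlap. Lamb2, found in vessel and alveolar basement membranes, averaged 107 ± 15.8 CPM in the knockout and 90.7 ± 6.62 CPM in wild type (0.23, adjusted p = 0.0955), and was called without knockout library 1 (0.0334 to 0.215). The alpha chains Lama2, Lama4 and Lama5 were not called, with differences of 0.08, 0.17 and 0.16. Lama4 belongs mainly to vessels and Lama5 to epithelium.

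**Figure D5:**
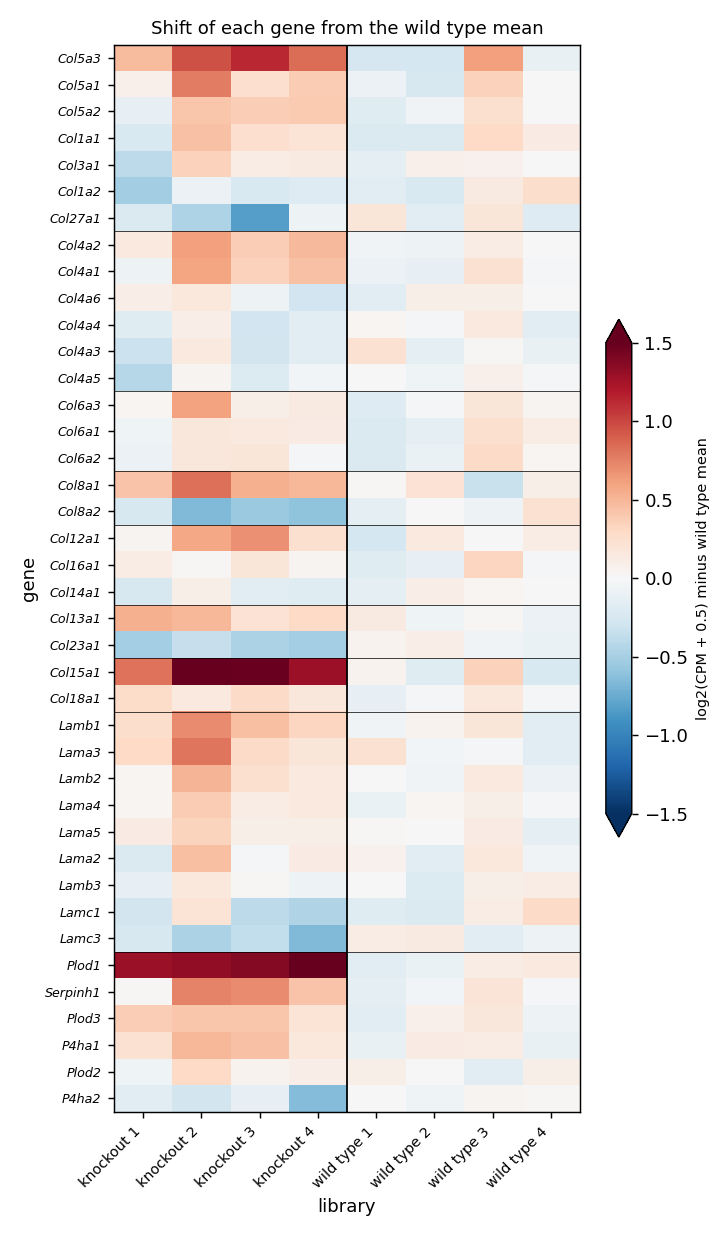
Shift of 40 of the 41 genes from the mean of the 4 wild type libraries on log2(CPM + 0.5), red for higher and blue for lower, with the knockout libraries left of the line and the wild type libraries right of it; genes run by class and, within it, by difference. Knockout library 2 is the highest knockout library for 30 of 41 genes and knockout library 1 the lowest for 26, while Plod1 is shifted up in all 4.

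Other genes of the pathway were read from 4 lists, drawn up by function with earlier results of these data known. Of 26 tested genes for folding, processing and cross-linking of collagen, 6 were called higher (23.1%, against 16.6% of all genes) and 2 lower (7.69%, against 14.3%), with a median difference of 0.09, against 0.01 over all genes. The number called higher was 5 without knockout library 2 or wild type library 1, 2 or 4, and 7 without knockout library 1 or wild type library 3. It was 8 with the replicate number as a block. With quantile normalization 3 were lower, and a minimum mean of 5 CPM left 5 higher and 1 lower. Glt25d2, which adds galactose to hydroxylysine, stood at 20.6, 20.6, 21.9 and 21.7 CPM in the knockout, against 14.2, 12.4, 12.4 and 12.5 CPM in wild type (0.70, adjusted p = 9.48e-05). Creb3l1, a transcription factor that drives collagen genes in bone, stood at 33.2, 48.2, 44.4 and 37.4 CPM in the knockout, against 27.45, 20.97, 21.02 and 20.9 CPM in wild type (0.83, adjusted p = 0.00079). The prolyl 3-hydroxylase Leprel2 and the cross-linking enzyme Loxl4 had log2 differences of -0.57 and -0.65 (adjusted p = 0.00195 and 0.00309). Lox and Loxl1, lysyl oxidases that cross-link collagen and elastin, were named after their values were seen. Lox averaged 95.8 ± 15.6 CPM in the knockout and 65.0 ± 5.19 CPM in wild type (0.55, adjusted p = 0.00342), and Loxl1 136 ± 20.7 CPM in the knockout and 95.4 ± 11.1 CPM in wild type (0.50, adjusted p = 0.00601).

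Of 12 tested proteins that bind fibrils, 3 were called higher and 1 lower (median 0.05), so that 33.3% were called, close to the 30.9% of all genes. Prelp, a leucine-rich proteoglycan, averaged 381 ± 7.08 CPM in the knockout and 293 ± 13.2 CPM in wild type (0.38, adjusted p = 0.000506), and Aspn differed by 0.44 (adjusted p = 0.00522). Vcan was called higher (0.78, adjusted p = 0.0269) and Postn lower (-0.23, adjusted p = 0.0272), and each lost its call without some library. Without knockout library 2 or 3, 2 were higher. Without knockout library 3, wild type library 1 or 3 or the variance trend, 0 were lower. Of 13 basement membrane partners, 2 were higher and 2 lower (median 0.14), which is 30.8% called: the collagen IV cross-linking enzyme Pxdn (0.35, adjusted p = 0.03) and Smoc2 (0.37, 0.0451), against Ntn4 (-0.32, 0.0335) and Smoc1 (-0.53, 0.0465). None of these calls was left without knockout library 3 or wild type library 1 or 2. None was called higher without knockout library 2 or wild type library 4 either, and 1 was called lower without knockout library 2 or 4 or wild type library 3 or 4. With no filter on low values 1 was called higher, without the variance trend 1 higher and 1 lower, with the replicate number as a block 1 higher and 0 lower, and with DESeq2 or quantile normalization 1 lower. Of 14 receptors for collagen and laminin, Itga7, a laminin-binding integrin subunit of muscle, rose, and Cd151 and Itga6, a tetraspanin and its laminin-binding integrin subunit, fell (median 0.04). These are 21.4% called. Itga7 stood at 21.3, 23.2, 31.3 and 23.97 CPM in the knockout, against 12.9, 13.3, 13.1 and 13.3 CPM in wild type (0.88, adjusted p = 0.000209). Cd151 averaged 176 ± 7.87 CPM in the knockout and 218 ± 7.78 CPM in wild type (-0.31, adjusted p = 0.0021). The fall of Itga6 (-0.32, adjusted p = 0.0342) was lost without knockout library 1, 3 or 4 or wild type library 2, 3 or 4, without the variance trend and with the replicate number as a block, which left 1 receptor called lower, and 2 were called higher without knockout library 1 or wild type library 3.

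Markers of the other cells that make these proteins were read as summed CPM. Of all genes tested, 16.6% were called higher and 14.3% lower. These shares were 25% and 12.5% for alveolar fibroblast and for alveolar type 1 markers, and 12.5% and 12.5% for adventitial fibroblast markers. They were 50% and 25% for pericyte and for cartilage, 33.3% and 0% for endothelial and 0% and 25% for smooth muscle markers. For mesothelial, Schwann and striated muscle markers they were 0% and 20%, 33.3% and 33.3%, and 20% and 20%. Adventitial fibroblast markers (8 of 8 listed, 1 called higher and 1 lower) summed to 845 to 934 in the knockout and 979 to 1057 in wild type, without overlap. The most abundant of the 8 was Clec3b, which was not called and overlapped, at 402 to 551 CPM in the knockout and 514 to 576 CPM in wild type. Pi16 was called higher (0.52) and Il33 lower (-0.68). Il33 stood at 50.9 to 71.0 CPM in the knockout and 77.1 to 109 CPM in wild type, and without it the sums overlapped. Of the 8 markers, 3 were called lower without knockout library 1, and 2 without knockout library 2 or 4, with quantile normalization or with the replicate number as a block. Of 8 pericyte markers 4 were called higher and 2 lower, with 1 lower without any single library other than knockout library 2, or without the variance trend. Without wild type library 1, 3 of them were higher. Of 9 endothelial markers 3 were called higher and 0 lower on the CPM as deposited, but 3 higher and 3 lower with TMM or quantile normalization, 4 and 3 with median-ratio scaling or DESeq2, and 3 and 2 with edgeR. Without knockout library 2, 2 were higher and 1 lower, and with the replicate number as a block 3 were higher and 1 lower. The counts were 2 and 0 without knockout library 3, wild type library 1, 2 or 4, or the variance trend, and 4 and 0 without wild type library 3. Smooth muscle and myofibroblast markers (0 of 8 higher, 2 lower) summed to 256 to 369.7 in the knockout and 322 to 343 in wild type, with 1 called lower without knockout library 3 or wild type library 2 or 3. Mesothelial markers (5 of 5 listed, 1 lower) summed to 270.4 to 326 in the knockout and 234 to 304 in wild type. The call was lost without knockout library 1, 3 or 4, wild type library 2, 3 or 4, or the variance trend, and 1 was called higher with TMM, median-ratio scaling, edgeR or DESeq2 and without wild type library 3. Cartilage markers were listed for 5 of 12, without Acan, Comp and Matn1, and summed to 120.4 to 148 in the knockout and 120.3 to 141 in wild type, with 2 of 4 tested called higher and 1 lower. Without knockout library 2, 3 or 4, wild type library 1, 3 or 4 or the variance trend 1 was higher, and without any of the wild type libraries 0 were lower. Schwann cell markers (4 of 7 listed, 1 of 3 higher and 1 lower) summed to 23.9 to 31.4 in the knockout and 24.9 to 28.8 in wild type. Striated muscle markers (6 of 7 listed, 1 of 5 higher and 1 lower) summed to 303 to 499 in the knockout and 292 to 474 in wild type. The part of any of these cells in the values above was not tested.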

How the data were processed

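Lung RNA of knockout and wild type mice was profiled by CAGE, in 4 libraries of each genotype. Per the labels' protocols, RNA had an integrity number above 7.0, and the 8 barcoded libraries were pooled for reads of 75 nt. Of tools, BWA (0.7.12-r1039), HISAT2 (2.0.5) and edgeR are named per the submitters' processing notes, with the build mm9 and no role for any. The assignment of reads to genes is not stated in those notes or the labels. The authors deposited CPM with 2 decimals for 15728 genes, and each column adds up to 1000000. Whole reads were recovered from the CPM steps (100% of values within 0.1 reads), and 3 reads served as floor, for counting error only.

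A gene entered the test if 4 libraries or more had 1 CPM or more, which held for 14065 genes and all 41 described. They were tested with limma 3.58.1 in R 4.3.3 on log2(CPM + 0.5), with a variance trend and genotype as the only term, two-sided. The labels do not say that each library is from another mouse, so p-values measure the spread between libraries, which were taken as mice here. Between libraries of 1 genotype the mean chi-square of a gene was 11.9 to 20.1, above counting noise. On the recovered reads, edgeR 4.0.16 called 2247 genes higher and 2326 lower and DESeq2 1.42.0 called 2189 and 2266, against 2341 and 2010 with limma.

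The genes and lists were chosen with earlier results of these data known. Every one of the 41 genes may be named; those called, the type IV pairs, Col1a1, Col1a2, Col3a1, Serpinh1, P4ha and Plod genes were to be given by library. Of each of 4 pathway lists up to 4 called genes with the smallest adjusted p were named, and 11 marker lists were read as sums. Ratios of chains and the neighbours of Plod1 were added after values were seen. Overlaps (5 genes overlap another listed gene) and copies of at least 97% identity over 75 nt in the first 200 nt (blastn 2.17.0) came from GENCODE M21 (GRCm38), names and gene order from RefSeq GRCm38.p6. Copies were found for Plod3 (Znhit1) and, among unlisted models, for Col3a1 and Lama3. Figures were drawn with matplotlib 3.10.9. The values of 1 called gene among the 41 and of 1 neighbour of Plod1 are not reported here, although the counts include them.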

Additional observations from a re-analysis of the deposited data

Results flagged for a closer look

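In 5 of 82 groups of 4 libraries (41 genes in each genotype) 1 library stood far from the other 3 by Dixon's test, and chance sets apart about 1 in 20 such groups. Knockout library 2 was high for Lama3 (53.6 CPM, against 34.7 to 37.8 CPM in the other knockout libraries), Lama5 (46.6 CPM, against 39.0 to 39.9 CPM) and Col6a3 (65.7 CPM, against 44.1 to 47.3 CPM). Knockout library 1 was low for Col5a2 (68.2 CPM, against 96.1 to 99.4 CPM in the other knockout libraries). Wild type library 3 was high for Col5a3 (1.5 CPM, against 0.59 to 0.71 CPM in the other wild type libraries).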

How the results depend on the processing

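Over 19 alternatives the number of genes called, among the 41 and among all genes, stayed within 1.5 times the reported one and no called difference changed sign. Leaving out 1 library gave 9 to 17 of the 41 genes higher and 3 or 4 lower, with 17 and 4 without knockout library 1. Of the 15 called genes 11 kept the call under every alternative that could test them, and a minimum mean of 5 CPM left Col5a3, Col8a1, Col8a2 and Col15a1 untested. Another 4 (P4ha1, Lama3, Col8a1 and Serpinh1) lost it under at least 1, and 8 uncalled genes gained one under at least 1. The other scalings shifted the median of all genes to between -0.01 and 0.02 on the log2 scale. Among uncalled genes, the signs of Col3a1 and Col4a6 turned with quantile normalization, that of P4hb with every other scaling and both count tests, and those of Col3a1, Col4a6, P4hb, Col6a2, Lama2 and Lamb3 without at least 1 library. Same-numbered libraries were not paired, since their deviations from the genotype means correlated by -0.00287 to 0.0646. With a replicate block 14 of the 41 were higher and 3 lower, and 2384 and 2014 of all genes. Not every library correlated best with its own number. The causes were not tested. All knockout libraries were shallower than all wild type libraries, and depth limits Col5a3 and Col8a1 most.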

Other observations

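Within each genotype the same libraries were often highest or lowest over the 41 genes. Knockout library 2 was the highest of the 4 knockout libraries for 30 of the 41 genes (73.2%), against 37.7% of all genes tested, and knockout library 1 the lowest for 26 (63.4%), against 27.2%. In wild type, library 3 was the highest for 24 of the 41 genes (58.5%), against 33% of all genes, and library 1 the lowest for 18 (43.9%), against 26.9%. The median shift of the 41 genes from the wild type mean was 0.02, 0.38, 0.18 and 0.13 on the log2 scale in knockout libraries 1 to 4, against -0.09, -0.06, 0.13 and -0.01 in wild type libraries 1 to 4. Over all genes the same medians were 0.02, 0.07, 0.02 and -0.05 in the knockout libraries, against -0.01, 0.01, 0.03 and -0.04 in the wild type libraries.

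Head-to-head partners of type IV collagen were at like levels for Col4a3 with Col4a4 and not for Col4a5 with Col4a6. Col4a3 was 1.003 to 1.15 times Col4a4 in the knockout libraries and 1.02 to 1.28 times in the wild type libraries. Col4a5 was 6.43 to 11.3 times Col4a6 in the knockout libraries and 8.45 to 10.7 times in the wild type libraries. Col6a1 was 2.23 to 2.50 times Col6a2 in the knockout libraries and 2.21 to 2.42 times in the wild type libraries.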
